A study of Mus musculus with 26 samples.

Results

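Lymphoid priming genes were followed across 26 libraries of haematopoietic stem cells (HSCs), the self-renewing cells of bone marrow from which all blood lineages arise. The 10 genes, of 23416 in the deposited table, were Flt3, Cd52, Cd53, Il7r, Dntt, Satb1, Ikzf1, Notch1, Ccr9 and Ly6d, and their rows were found by symbol. The group was chosen by measured values: Flt3, Cd52 and Cd53 had been seen to be high with Ezh2 loss in the RPKM of these same libraries. Their values in mice with Ezh2 loss against control are therefore a description without a test. Adjusted p-values are given for 4 other contrasts: the double mutant against JAK2V617F, Ezh2 loss against JAK2V617F, JAK2V617F against control, and the interaction. They are not independent of the choice, since they share libraries with it and the first also sets Ezh2 loss against intact Ezh2, so their p-values are no separate evidence for these genes.

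The groups were JAK2V617F with Ezh2 loss (double mutant, n = 7 libraries), Ezh2 loss alone (n = 7), JAK2V617F alone (n = 7) and control, which 1 label also calls WT (n = 5). JAK2V617F is an activating kinase mutation of myeloproliferative neoplasms, spelled JAK2V17F in the label of the double mutant. EZH2 is the enzyme of Polycomb repressive complex 2, which methylates lysine 27 of histone H3. All cells were HSCs sorted by flow cytometry from mouse bone marrow and profiled with Smart-Seq2, a full-length RNA-seq protocol for small cell numbers. Age, sex, strain, the Ezh2 allele, the Cre driver and the number of cells per library were not stated in the labels used here, nor was it stated that libraries came from separate animals.

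Lymphoid priming is the low expression of lymphoid genes in multipotent progenitors before commitment. FLT3 is the receptor tyrosine kinase that marks lymphoid-primed progenitors and is normally low on long-term HSCs, IL-7 receptor and NOTCH1 carry the signals for B and T lineage growth, and Ikaros (Ikzf1) and SATB1 act on chromatin to permit the lymphoid programme. CD52 and CD53 are surface proteins found widely on mature leukocytes, myeloid cells included, so their RNA is not specific to the lymphoid lineage.

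The titles came in 2 styles, with the number before or after the group code. The number stood first in 7 of 7 double-mutant, 2 of 7 Ezh2-loss, 2 of 7 JAK2V617F and 4 of 5 control libraries. The style thus overlapped with genotype and was fitted as a covariate. Actb, a gene chosen after its values were seen, did not follow the style within the double mutant. In double-mutant libraries 3, 4, 6 and 7, titled 24 to 27, it was at 4147 to 5229 RPKM. In the other number-first libraries it was at 556 to 1105 RPKM, and in number-last libraries at 5059 to 10072 RPKM. The fit of all libraries gave the 7 double-mutant libraries the same style. Depth estimated from the steps of low values ran from 7.8 to 29.2 M reads (M for mega), with group medians of 19.7 (double mutant), 13 (Ezh2 loss), 14 (JAK2V617F) and 19 M (control). The HSC markers Procr, Hlf, Kit, Ly6a and Slamf1 were above 0 in all 26 libraries, with Procr at 58.9 to 222 RPKM, the number of reads per kilobase of a gene divided by the size of its library. Fgd5, a further HSC marker, was at 0 in double-mutant library 4 and at 0.0483 to 13.1 RPKM in the other 25, and 18 or 19 of the 19 HSC list genes were above 0 in each library. Ezh2 RNA averaged 17.4 ± 9.07 in the double mutant, 17.6 ± 9.0 in Ezh2 loss, 27.1 ± 8.21 in JAK2V617F and 23.7 ± 10.4 RPKM in control. The Ezh2 fold changes against JAK2V617F did not pass: -0.70 for the double mutant (limma, SE 0.46, Benjamini-Hochberg adjusted p = 0.773) and -0.71 for Ezh2 loss (SE 0.38, adjusted p = 0.636).

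A second marker set the limits of the comparison. Retnlg, a secreted protein gene of maturing neutrophils, was at 0 in all 5 control libraries and in 6 of 7 JAK2V617F libraries, and was above 0 in 3 of 7 double-mutant and in 7 of 7 Ezh2-loss libraries. In replicate order Retnlg was at 0, 0, 81.6, 525.7, 0, 0 and 6.77 RPKM in the double mutant. It was at 19.9, 449, 359.7, 69.2, 17.4, 68.0 and 12.6 RPKM in Ezh2 loss, and the 1 JAK2V617F library above 0 had 7.94 RPKM. Ezh2 loss against JAK2V617F passed for Retnlg, with a log2 fold change of 5.54 (limma, SE 1.08, adjusted p = 0.0217). In bulk libraries, fewer cells of a type and less RNA per cell cannot be told apart.

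Flt3 was above 1 RPKM in all 7 double-mutant libraries, against 3 of 7 Ezh2-loss, 3 of 7 JAK2V617F and 2 of 5 control libraries, and it stayed high in the double-mutant libraries without Retnlg. Cd52 and Cd53 had their highest means with Ezh2 loss, alone or with JAK2V617F. In libraries without Retnlg, Cd52 of the double mutant averaged 11.6 RPKM, against 133 RPKM over all 7. Satb1, Ikzf1 and Notch1 overlapped between all 4 groups, as did Flt3, Cd52 and Cd53. Where Retnlg was 0, Ikzf1 averaged 32.6 RPKM in the double mutant, 15.6 in JAK2V617F and 20.3 in control. In the same order, Satb1 averaged 2.20, 0.930 and 0.863 RPKM and Notch1 3.28, 2.83 and 2.28 RPKM. Il7r, Dntt, Ccr9 and Ly6d were at 0 in most libraries. Of the 10 genes, 6 reached 1 RPKM in at least 5 libraries and were tested: Flt3, Cd52, Cd53, Satb1, Ikzf1 and Notch1. None of the 6 passed an adjusted p under 0.05 in the 4 contrasts given with p-values.

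The start regions of these genes are shown because Polycomb repressive complex 2 is known to act mainly at CpG-rich starts, and the genes differ widely in that feature. Each sequence runs 5′ to 3′ on the strand of the gene, from 250 bases before to 50 bases after the RefSeq start in GRCm38.p6, with CpG dinucleotides in capitals. RefSeq windows were used for 8 of the 10 genes, 13 windows in all.
Flt3, chr5:147400440-147400739, minus strand: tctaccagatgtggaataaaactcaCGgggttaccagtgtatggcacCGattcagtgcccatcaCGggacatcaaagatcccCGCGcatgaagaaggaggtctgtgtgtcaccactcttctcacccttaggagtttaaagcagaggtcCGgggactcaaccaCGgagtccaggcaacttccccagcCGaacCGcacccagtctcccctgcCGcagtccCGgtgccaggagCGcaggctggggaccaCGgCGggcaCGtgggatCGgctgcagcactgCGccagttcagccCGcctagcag
Cd53, chr3:106790100-106790399, minus strand: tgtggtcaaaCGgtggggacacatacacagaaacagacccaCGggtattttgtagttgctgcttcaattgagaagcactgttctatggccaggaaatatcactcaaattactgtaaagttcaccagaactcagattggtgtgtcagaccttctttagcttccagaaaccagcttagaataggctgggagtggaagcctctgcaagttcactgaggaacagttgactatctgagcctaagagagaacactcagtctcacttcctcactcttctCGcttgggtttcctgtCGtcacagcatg
Ikzf1, first start, chr11:11685675-11685974, plus strand: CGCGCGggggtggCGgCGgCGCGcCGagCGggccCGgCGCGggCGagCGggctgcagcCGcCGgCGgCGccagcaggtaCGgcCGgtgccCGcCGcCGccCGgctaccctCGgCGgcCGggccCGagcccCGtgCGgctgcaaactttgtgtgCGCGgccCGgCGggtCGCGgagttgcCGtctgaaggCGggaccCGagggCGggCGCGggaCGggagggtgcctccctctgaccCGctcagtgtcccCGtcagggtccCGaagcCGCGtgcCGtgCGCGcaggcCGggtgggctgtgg
Il7r, chr15:9529827-9530126, minus strand: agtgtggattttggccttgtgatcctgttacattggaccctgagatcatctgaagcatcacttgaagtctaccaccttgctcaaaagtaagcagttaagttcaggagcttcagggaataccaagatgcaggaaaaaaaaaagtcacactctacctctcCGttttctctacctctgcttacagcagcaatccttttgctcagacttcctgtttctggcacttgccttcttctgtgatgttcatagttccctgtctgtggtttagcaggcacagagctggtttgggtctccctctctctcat

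The Flt3 window held 18 CpG and the first Ikzf1 window 52, while the Cd53 window held 4 and the Il7r window 1. The median over 32841 RefSeq windows was 7 CpG. The ratio of observed to expected CpG was 0.647 at Flt3, 1.06 at the first start of Ikzf1, 0.248 at Cd53 and 0.0647 at Il7r, beside a median of 0.384. Notch1 had 23 CpG, Dntt 2 and Ccr9 4. The 5 starts of Satb1 held between 3 and 45, and the second start of Ikzf1 held 2. No histone mark was measured in these files, so no level of H3 lysine 27 methylation goes with these windows.

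Short motifs were searched on both strands. The PU.1 motif GAGGAAGT, a binding site of a myeloid and lymphoid factor, was present in the Cd53 window and at the first start of Satb1, and in 3.2% of all windows. The RUNX motif TGTGGT was present at Cd53 and Il7r and in 16.8% of all windows. The STAT motif TTCNNNGAA was present at Il7r and at the second start of Ikzf1 and in 8.3% of all windows. The GATA motif AGATAA was present at Dntt (11.2% of all windows), and the E-box CAGCTG and the core TGGGAA shared by RBPJ and Ikaros only at Satb1 starts among the 13 windows (16.3% and 25.6% of all). None of the 6 motifs was present in the Flt3, Notch1 or Ccr9 windows or at the first start of Ikzf1. A match is a description of letters and not a bound site.

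Flt3 (chr5:147330741-147400489, minus strand, GRCm38 with GENCODE M21, as for all gene positions here) encodes the receptor for FLT3 ligand. In replicate order, Flt3 was at 6.59, 18.1, 3.25, 7.49, 2.01, 14.0 and 7.84 RPKM in the double mutant. It was at 0, 0.607, 13.2, 0.121, 1.43, 4.98 and 0.694 RPKM in Ezh2 loss. JAK2V617F libraries had 0.311, 0, 2.44, 0.0248, 0, 4.47 and 5.21 RPKM, and control libraries 0.866, 1.98, 0.824, 0.0144 and 2.02 RPKM. The double mutant was thus at 2.01 RPKM or more in every library, whereas 1 library carried most of the Ezh2-loss mean. The lowest double-mutant library lay just below the highest control library, so 6 of 7 were above every control library, and 5 of 7 were above every JAK2V617F library.

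The mean of Flt3 was 8.46 ± 5.73 RPKM in the double mutant, 3.0 ± 4.79 in Ezh2 loss, 1.78 ± 2.27 in JAK2V617F and 1.14 ± 0.854 in control (SD). The order of the medians was different: 7.49 in the double mutant, 0.694 in Ezh2 loss, 0.311 in JAK2V617F and 0.866 RPKM in control, the last 3 within the spread of single libraries. Reads recovered from the value steps ran from 169 to 1490 per library in the double mutant, 0 to 685 in Ezh2 loss, 0 to 161 in JAK2V617F and 1 to 140 in control. In the 3 libraries at 0, a count of 0 allows up to 0.0508 to 0.0939 RPKM at 3 reads, and such limits cover counting error only, since PCR reads are not independent molecules.

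**Figure D1:**
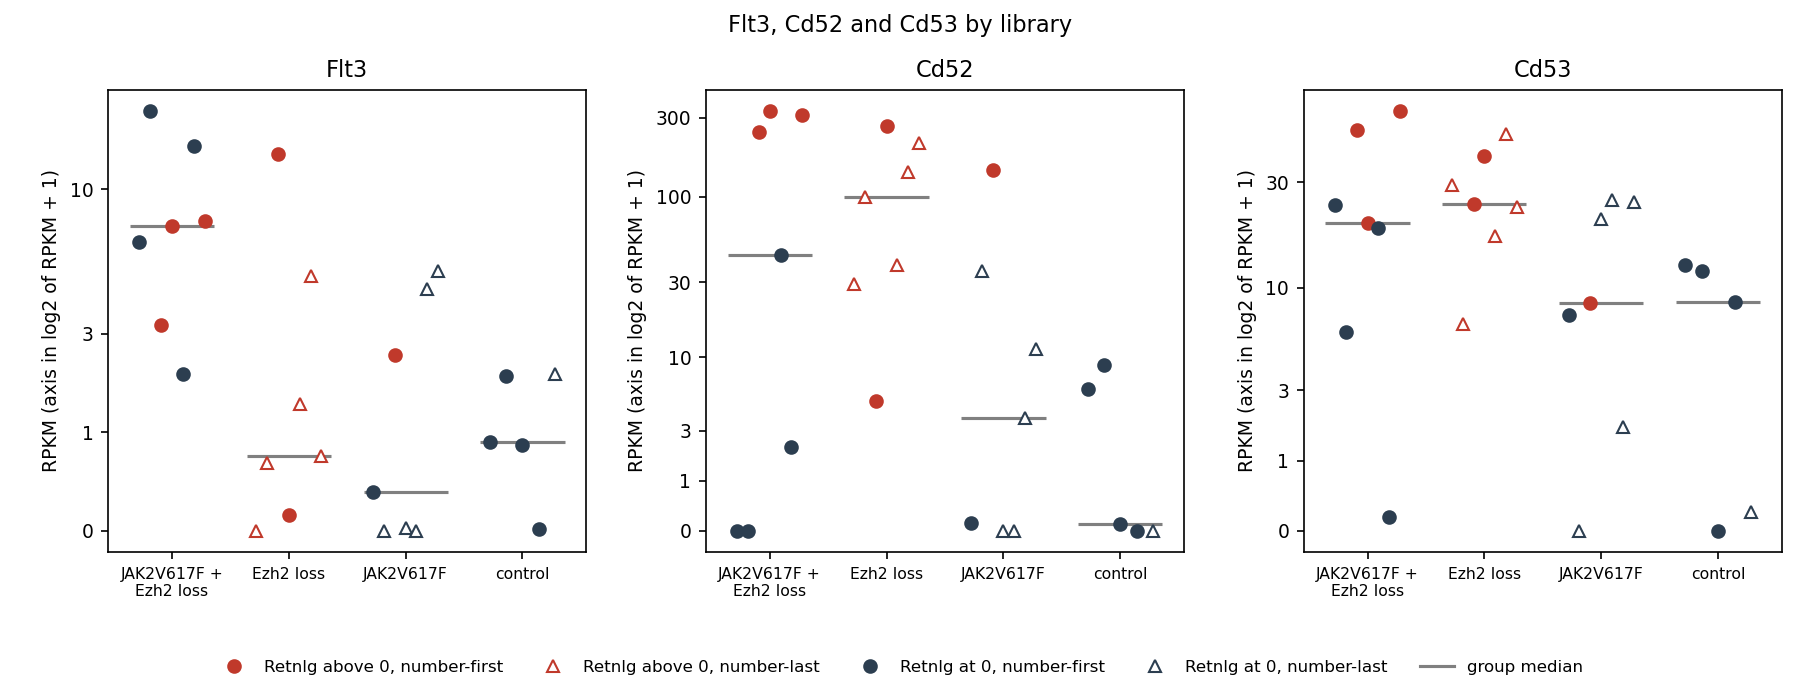
RPKM of Flt3, Cd52 and Cd53 in each of 26 libraries (vertical axis in log2 of RPKM + 1), for the double mutant, Ezh2 loss, JAK2V617F and control from left to right. Circles are number-first and open triangles number-last titles, red marks Retnlg above 0, dark marks Retnlg at 0 and grey bars are group medians. Dark double-mutant circles stand high for Flt3 (2.01 to 18.1 RPKM) but low for Cd52 (0 to 44.3 RPKM).

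The fitted Flt3 difference between the double mutant and JAK2V617F was 1.80 in log2(RPKM + 1), with SE 0.72, and did not pass (limma, Benjamini-Hochberg adjusted p = 0.495 over 12116 genes). Over the 16 other settings run for this contrast the adjusted p ranged from 0.0655 without the style covariate to 0.941 with only these groups in the fit, and over the 26 fits that left out 1 library from 0.389 to 0.748. Against control the double mutant was 1.96 higher (SE 0.66), and Ezh2 loss alone 0.45 higher (SE 0.71), both as descriptions. Ezh2 loss against JAK2V617F gave 0.29 (SE 0.59, limma adjusted p = 0.937) and JAK2V617F against control 0.17 (SE 0.71, adjusted p = 0.999). The interaction, which asks whether the double mutant exceeds the sum of both single mutants, was 1.34 (SE 1.13, limma adjusted p = 0.904). Without Ezh2-loss library 3, the fold of Ezh2 loss against JAK2V617F for Flt3 was -0.18, so its direction rested on that library.

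In the 15 libraries with Retnlg at 0, Flt3 averaged 10.2 ± 7.23 RPKM in the double mutant (SD, n = 4), 1.67 ± 2.47 in JAK2V617F (n = 6) and 1.14 ± 0.854 in control (n = 5). The 4 double-mutant libraries had 6.59, 18.1, 2.01 and 14.0 RPKM, and they overlapped with JAK2V617F in 1 library. The log2 difference in these libraries was 2.83 against JAK2V617F (SE 0.97, limma adjusted p = 0.393) and 2.32 against control (SE 0.73, description), neither smaller than with all libraries. All double-mutant libraries there were number-first, while JAK2V617F library 1 (0.311 RPKM) was the only number-first library of its group. Control library 5 was the only number-last control library. For every gene fitted in these libraries, the difference from JAK2V617F thus leans on a style term largely set by those libraries. Number-first libraries gave 1.91 (SE 0.85) and 2.16 (SE 0.67), and a neutrophil score as covariate gave 1.83 (SE 0.73) and 2.11 (SE 0.71). The 3 double-mutant libraries with Retnlg had 3.25, 7.49 and 7.84 RPKM of Flt3, within the range of the other 4. For Ezh2 loss alone the comparison could not be made, since 0 of its 7 libraries had Retnlg at 0.

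Cd52 (chr4:134082448-134095082, minus strand) encodes a short glycosylphosphatidylinositol-anchored peptide on lymphocytes, monocytes and other leukocytes. In replicate order, Cd52 was at 0, 0, 245, 329.6, 44.3, 2.18 and 311 RPKM in the double mutant. It was at 29.3, 99.5, 5.02, 268, 38.1, 141 and 209 RPKM in Ezh2 loss. JAK2V617F libraries had 0.113, 35.3, 144, 0, 0, 3.78 and 11.3 RPKM, and control libraries 6.06, 8.92, 0.0981, 0 and 0 RPKM. Ezh2 loss was the only group with Cd52 above 5 RPKM in every library, and 6 of its 7 libraries were above every control library. The double mutant was divided, with 3 libraries at 245 RPKM or more and 3 at 2.18 RPKM or less.

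The mean of Cd52 was 133 ± 154 RPKM in the double mutant, 113 ± 98.8 in Ezh2 loss, 27.8 ± 52.9 in JAK2V617F and 3.02 ± 4.21 in control (SD). The medians were 44.3, 99.5, 3.78 and 0.0981 RPKM in the same groups, so the double mutant and Ezh2 loss changed places. In the 6 libraries at 0 the limit at 3 reads was 0.303 to 0.54 RPKM. Exons of Cd52 overlap those of Crybg2 (listed as Aim1l) on the opposite strand. Aim1l was above 0 in 5 of 26 libraries and reached at most 1.1 RPKM.

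Against control, Cd52 was 3.18 higher in log2(RPKM + 1) in the double mutant (SE 1.57) and 5.07 higher in Ezh2 loss (SE 1.70), as descriptions. Ezh2 loss against JAK2V617F gave 3.43 (SE 1.41, limma adjusted p = 0.517), the double mutant against JAK2V617F 1.54 (SE 1.72, adjusted p = 0.889) and JAK2V617F against control 1.64 (SE 1.70, adjusted p = 0.999). The interaction was -3.53 (SE 2.69, limma adjusted p = 0.885). None of these passed, and each SE was above 1 on the log2 scale. Without JAK2V617F library 3 the double mutant against JAK2V617F gave 3.19, JAK2V617F against control 0.22 and the interaction -1.29. Without JAK2V617F library 1 the first of these gave 0.42 and the second 2.6, and without Ezh2-loss library 3 the interaction gave -5.57.

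The 3 double-mutant libraries with high Cd52 were the 3 with Retnlg above 0. They were also those titled 25 to 27, with Actb at 4147 to 5229 RPKM. Library 6, titled 24, had Actb at 4306 RPKM, Retnlg at 0 and Cd52 at 2.18 RPKM. Retnlg and this set of titles thus largely coincided, and their parts in the Cd52 values were not tested. In libraries with Retnlg at 0, Cd52 averaged 11.6 ± 21.8 RPKM in the double mutant (SD, n = 4), 8.42 ± 13.9 in JAK2V617F (n = 6) and 3.02 ± 4.21 in control (n = 5). The log2 difference there was 0.16 against JAK2V617F (SE 1.70, limma adjusted p = 0.994) and 0.60 against control (SE 1.27, description). Over the other settings of the contrast with JAK2V617F the adjusted p ranged from 0.513 to 0.999. All 11 libraries with Retnlg above 0, in 3 genotypes, had Cd52 of 5.02 to 329.6 RPKM, while the 15 with Retnlg at 0 had 0 to 44.3 RPKM. With the neutrophil score as covariate the fold of Ezh2 loss against control was 1.40 (SE 1.55) and that of Ezh2 loss against JAK2V617F was 1.1 (SE 1.19, limma adjusted p = 0.859, with a range over settings of 0.203 to 1). Retnlg, a gene of the score, was above 0 in 7 of 7 Ezh2-loss libraries and at 0 in all 5 control libraries. The score thus overlaps with genotype, and this fit cannot tell them apart.

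Cd53 (chr3:106759921-106790149, minus strand) encodes a tetraspanin, a membrane organiser of leukocytes. In replicate order, Cd53 was at 23.9, 6.12, 50.8, 19.7, 18.8, 0.147 and 61.9 RPKM in the double mutant. It was at 29.2, 6.65, 24.1, 39.2, 17.4, 49.1 and 23.2 RPKM in Ezh2 loss. JAK2V617F libraries had 7.41, 0, 8.42, 20.7, 25.2, 1.80 and 24.6 RPKM, and control libraries 12.7, 12, 0, 8.57 and 0.205 RPKM. In Ezh2 loss 6 of 7 libraries, and in the double mutant 5 of 7, lay above every control library, while JAK2V617F overlapped with both.

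The mean of Cd53 was 25.9 ± 22.6 RPKM in the double mutant, 27 ± 14 in Ezh2 loss, 12.6 ± 10.7 in JAK2V617F and 6.70 ± 6.22 in control (SD). Against control the log2 difference was 1.65 in the double mutant (SE 0.90) and 2.81 in Ezh2 loss (SE 0.97), as descriptions. Ezh2 loss against JAK2V617F gave 1.52 (SE 0.81, limma adjusted p = 0.634), the double mutant against JAK2V617F 0.36 (SE 0.98, adjusted p = 0.961) and JAK2V617F against control 1.28 (SE 0.97, adjusted p = 0.999). The interaction was -2.44 (SE 1.54, limma adjusted p = 0.86). The double mutant against JAK2V617F gave 0.04 without double-mutant library 7 and 1.0 without double-mutant library 6. JAK2V617F against control gave 0.63 without control library 5, and the interaction then gave -1.46.

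In libraries with Retnlg at 0, Cd53 averaged 12.2 ± 11 RPKM in the double mutant (SD, n = 4), 13.3 ± 11.5 in JAK2V617F (n = 6) and 6.70 ± 6.22 in control (n = 5). The log2 difference there was -1.06 against JAK2V617F (SE 1.52, limma adjusted p = 0.918), the opposite sign to the fit of all libraries, and 0.56 against control (SE 1.14, description). The first value leans on the title style term, which JAK2V617F library 1 (7.41 RPKM) and control library 5 (0.205 RPKM) largely set. Over the other settings of the contrast with JAK2V617F the adjusted p ranged from 0.595 to 0.999. The 4 double-mutant libraries spanned 0.147 to 23.9 RPKM and the 6 JAK2V617F libraries 0 to 25.2 RPKM, almost the same range.

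**Figure D2:**
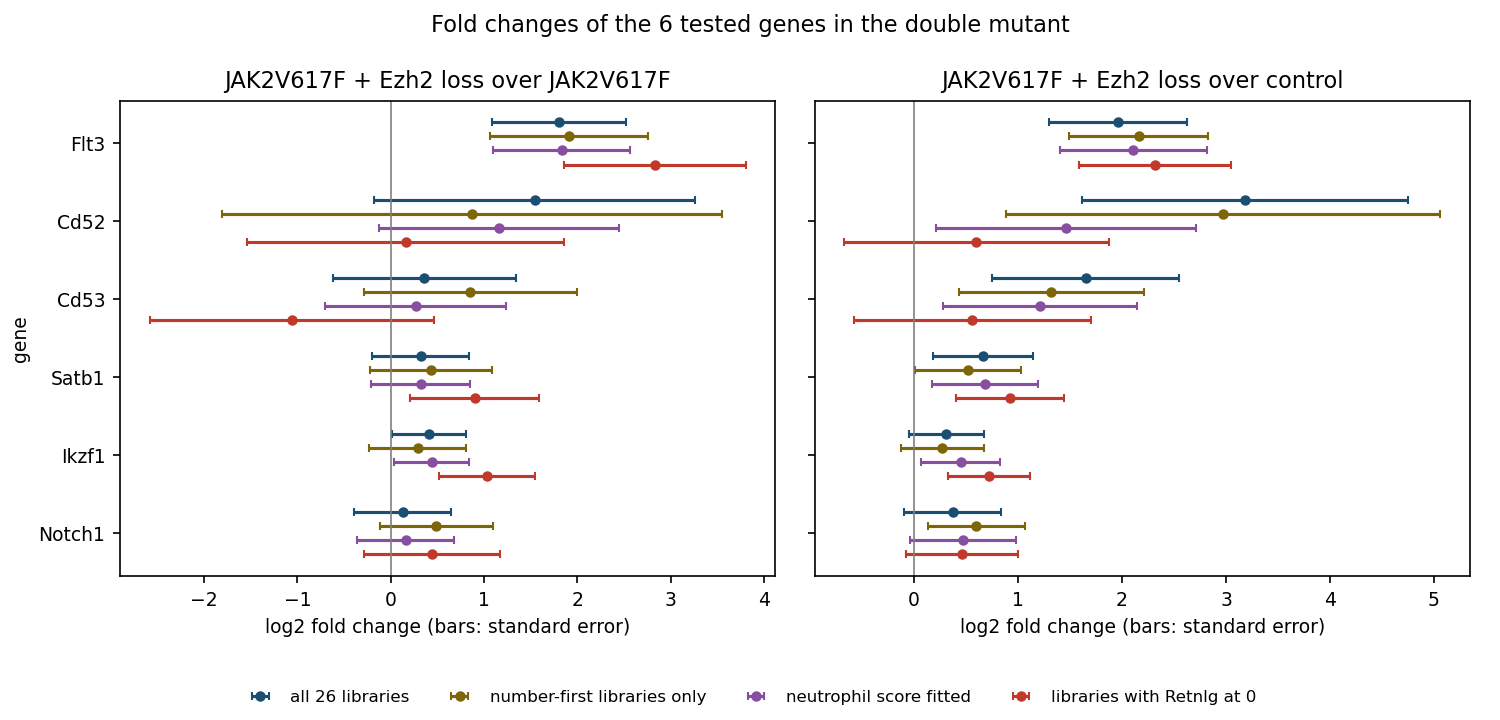
Log2 fold change in RPKM + 1 of the 6 tested genes (bars are SE), for the double mutant over JAK2V617F (left) and over control (right), each with all libraries and title style fitted, in number-first libraries, in libraries with Retnlg at 0 and with a neutrophil score as covariate. Flt3 stays at 1.80 to 2.83 on the left in all 4, while Cd52 lies at 0.16 and Cd53 at -1.06 where Retnlg was 0. In that subset JAK2V617F library 1 is the only number-first library of its group, so the left values there lean on the style term.

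Whole lists of cell type markers were read beside these genes. The neutrophil list, with 17 of its genes in the table, summed to 265 to 944 RPKM in the 15 libraries with Retnlg at 0 and to 755 to 52491 RPKM in the 11 with Retnlg above 0. The number of its genes above 0 was 5 to 10 per library in the 15 and 9 to 17 in the 11. The genes of this list named next were chosen after their values were seen. Mmp9 and Ctsg, granule proteins of neutrophils, were at 0 in all 15, but Ctsg was above 0 in only 2 of the 11. S100a8, Csf3r and Prtn3 were above 0 in all 15, with Prtn3 at up to 665 RPKM. S100a9 was above 0 in 14 of the 15, and Camp and Ngp in 10 each. Retnlg at 0 was thus not 0 for the whole list. By group the sum was 275 to 52491 RPKM in the double mutant, 755 to 38658 in Ezh2 loss, 409 to 17992 in JAK2V617F and 265 to 830.2 in control.

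With the mean of each title style removed, the correlation with this sum over the 26 libraries was 0.73 for Cd52 (Spearman 0.62), 0.52 for Cd53 (Spearman 0.62) and 0.01 for Flt3 (Spearman 0.02). These are descriptions over libraries that share groups, depth and preparation. The relation was not strict. Double-mutant library 7 had 311 RPKM of Cd52 at a sum of 1405 RPKM, and Ezh2-loss library 5 had 38.1 RPKM at a sum of 755 RPKM. JAK2V617F library 3, the only one of its group with Retnlg, had both the highest sum (17992 RPKM) and the highest Cd52 (144 RPKM) of its group. The part of neutrophil RNA in the Cd52 and Cd53 values was not tested beyond these comparisons.

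**Figure D3:**
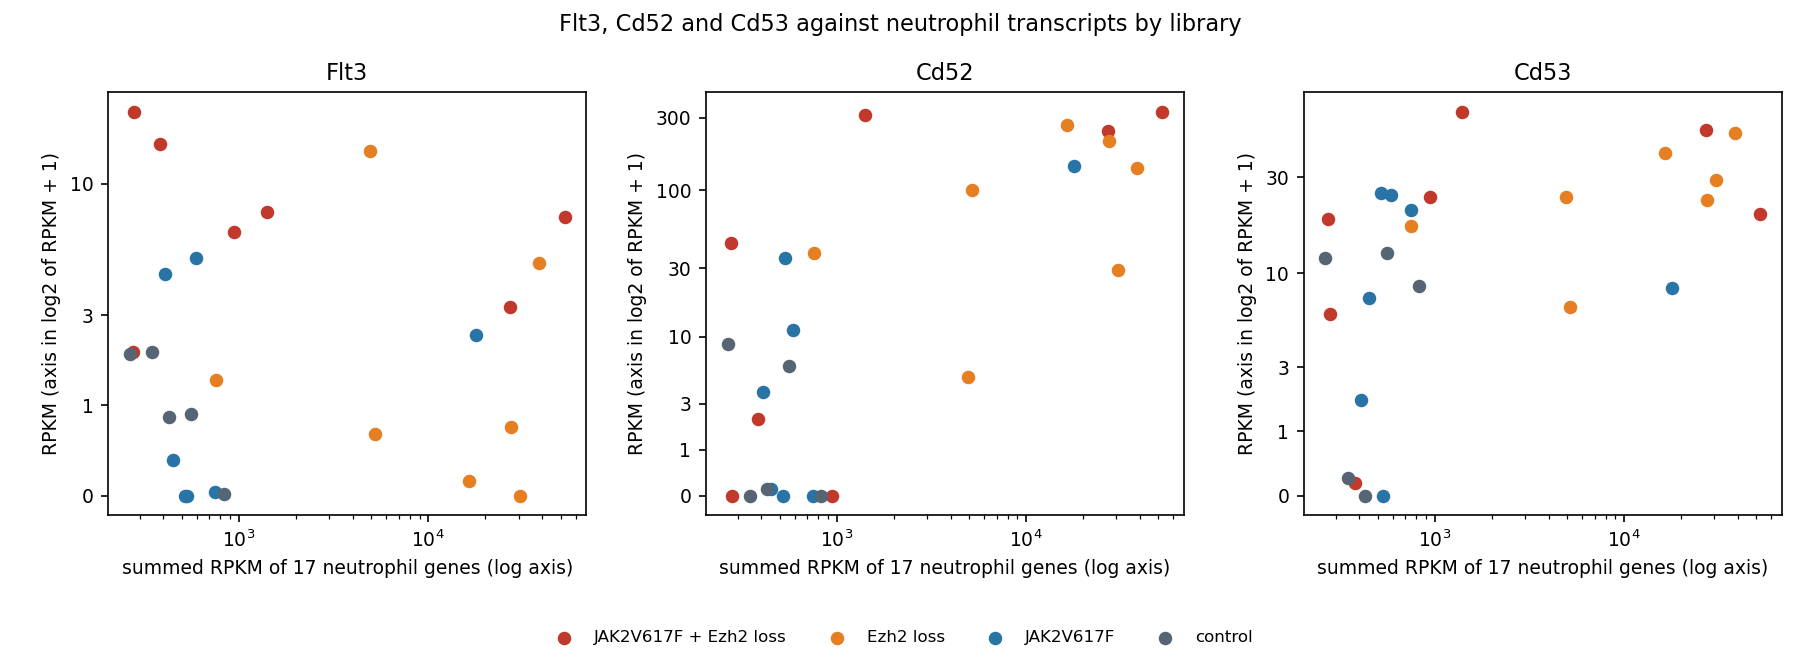
RPKM of Flt3, Cd52 and Cd53 (vertical axis in log2 of RPKM + 1) against the summed RPKM of 17 neutrophil genes (log axis), 1 point per library, coloured by group. Cd52 is at 5.02 RPKM or more in all 11 libraries with Retnlg, whose sums run from 755 to 52491 RPKM, and Flt3 shows no such step.

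The genes nearest to each of the 3 in pattern were named by Pearson r over 26 libraries after the style means were removed, as a description. For Cd52 they were Hp (0.84), Lyz2 (0.80), Chi3l3 (0.79), Cd177 (0.79) and Slpi (0.78). Hp encodes haptoglobin, Lyz2 lysozyme and Cd177 a surface protein of neutrophils. For Cd53 they were Gin1 (0.66), Fcer1g (0.65), Egfl7 (0.64), Dhrs1 (0.63) and Ypel5 (0.62), of which Fcer1g encodes the shared signalling chain of Fc receptors. For Flt3 they were Tmem231 (0.65), Ppp2r5c (0.62), Arhgap26 (0.62), Soat2 (0.61) and Sestd1 (0.61).

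Among the 3 genes, r was 0.46 between Cd52 and Cd53, 0.06 between Flt3 and Cd52 and 0.02 between Flt3 and Cd53. At a level of at least 10 RPKM, Cd52 and Cd53 were found together in 10 of 26 libraries. Flt3 and Cd52 shared 0 libraries at that level, with 3 libraries for Flt3 alone and 13 for Cd52 alone. Flt3 and Cd53 shared 1.

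**Figure D4:**
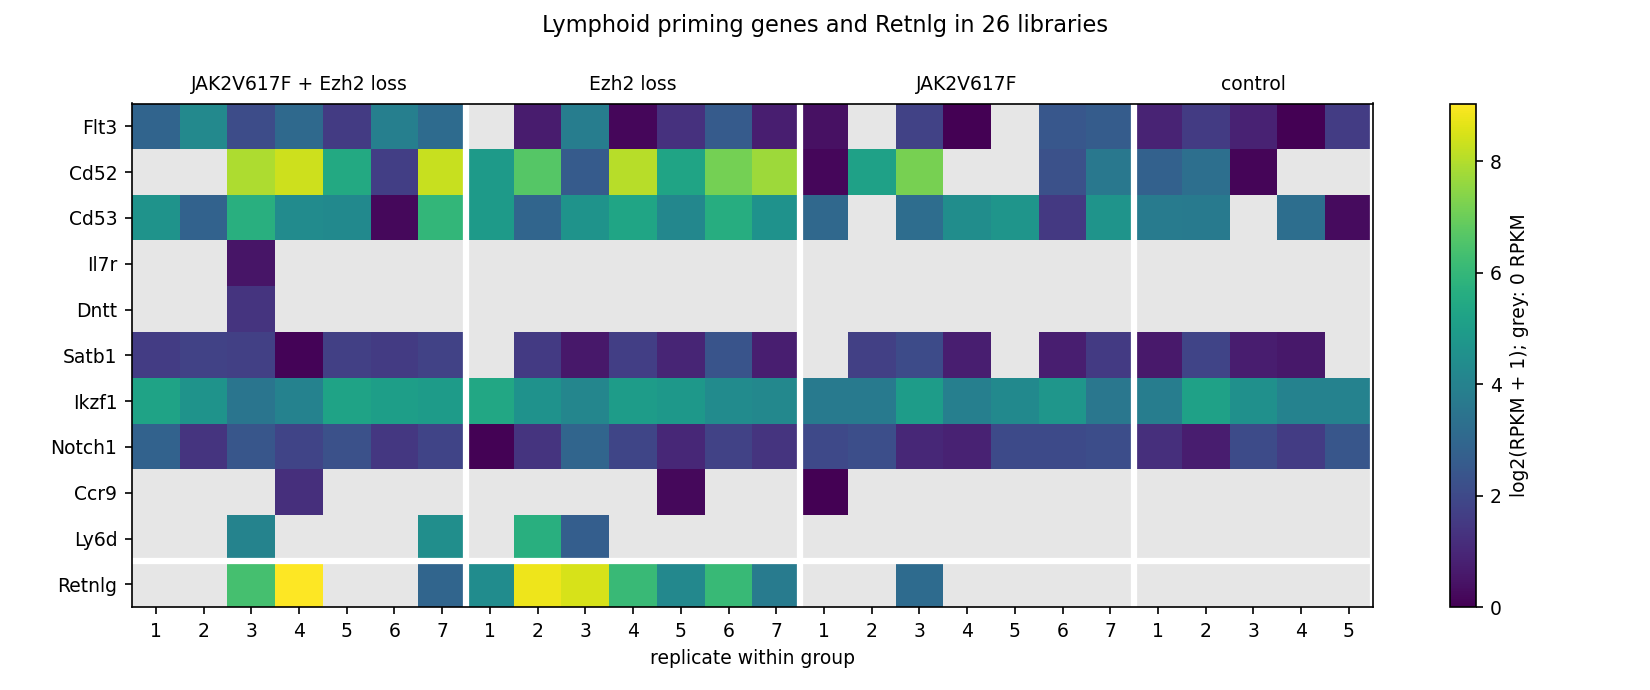
Level of the 10 genes and of Retnlg (rows) in 26 libraries (columns, by group and replicate), as log2 of RPKM + 1, with grey for 0 RPKM. Ikzf1 and Notch1 are above 0 in all 26 libraries, Il7r and Dntt only in double-mutant library 3.

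Ikzf1 (chr11:11685003-11772926, plus strand) encodes Ikaros, a zinc finger factor needed for lymphoid development. It was above 10 RPKM in all 26 libraries. In the double mutant it was at 36.5, 24.1, 10.5, 15, 37.3, 32.4 and 30.4 RPKM. In Ezh2 loss it was at 41.6, 23.4, 16.8, 30.6, 27.4, 19.6 and 17.6 RPKM, in JAK2V617F at 12.3, 11.8, 31.3, 14.1, 18.4, 26.2 and 11.1 RPKM, and in control at 13.3, 35.5, 22.4, 15.3 and 15.2 RPKM. All groups overlapped. The means were 26.6 ± 10.5, 25.3 ± 8.80, 17.9 ± 7.93 and 20.3 ± 9.13 RPKM for the double mutant, Ezh2 loss, JAK2V617F and control (SD).

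The Ikzf1 difference from JAK2V617F was 0.41 for the double mutant (SE 0.40, limma adjusted p = 0.864) and 0.51 for Ezh2 loss (SE 0.33, adjusted p = 0.721). Where Retnlg was 0, Ikzf1 averaged 32.6 ± 6.07 RPKM in the double mutant (SD, n = 4), 15.6 ± 5.79 in JAK2V617F (n = 6) and 20.3 ± 9.13 in control (n = 5). The log2 difference there was 1.03 against JAK2V617F (SE 0.51, limma adjusted p = 0.611, with a range over settings of 0.403 to 0.999) and 0.72 against control (SE 0.39, description).

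Satb1 (chr17:51736187-51833290, minus strand) encodes a chromatin organiser of lymphocytes. The double mutant was even, at 2.07, 2.48, 2.30, 2.28, 1.97 and 2.4 RPKM, apart from library 4 at 0.0753 RPKM. Ezh2 loss spanned 0 to 4.06 RPKM with a median of 0.923, JAK2V617F 0 to 3.22 with a median of 0.694, and control 0 to 2.61 with a median of 0.537. The means were 1.94 ± 0.842, 1.46 ± 1.38, 1.26 ± 1.24 and 0.863 ± 1.01 RPKM for the double mutant, Ezh2 loss, JAK2V617F and control (SD). The difference between the double mutant and JAK2V617F was 0.32 in log2 (SE 0.52, limma adjusted p = 0.933) with all libraries and 0.90 (SE 0.69, limma adjusted p = 0.804, with a range over settings of 0.581 to 0.999) where Retnlg was 0. Satb1 averaged 2.20 ± 0.228 RPKM in the 4 double-mutant libraries without Retnlg, 0.930 ± 0.968 in the 6 of JAK2V617F and 0.863 ± 1.01 in the 5 of control (SD).

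Notch1 (chr2:26457903-26516663, minus strand) encodes the receptor whose signal directs progenitors to the T lineage. It was above 0 in all 26 libraries and did not order the groups. The means were 3.23 ± 1.61 RPKM in the double mutant, 2.29 ± 2.13 in Ezh2 loss, 2.57 ± 1.15 in JAK2V617F and 2.28 ± 1.46 in control (SD). The difference between the double mutant and JAK2V617F was 0.13 in log2 (SE 0.52, limma adjusted p = 0.978), and that between Ezh2 loss and JAK2V617F was -0.26, with the opposite sign in number-first libraries (0.90, SE 0.76). Where Retnlg was 0 the first of these was 0.44 (SE 0.73, limma adjusted p = 0.937, with a range over settings of 0.812 to 0.999).

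**Figure D5:**
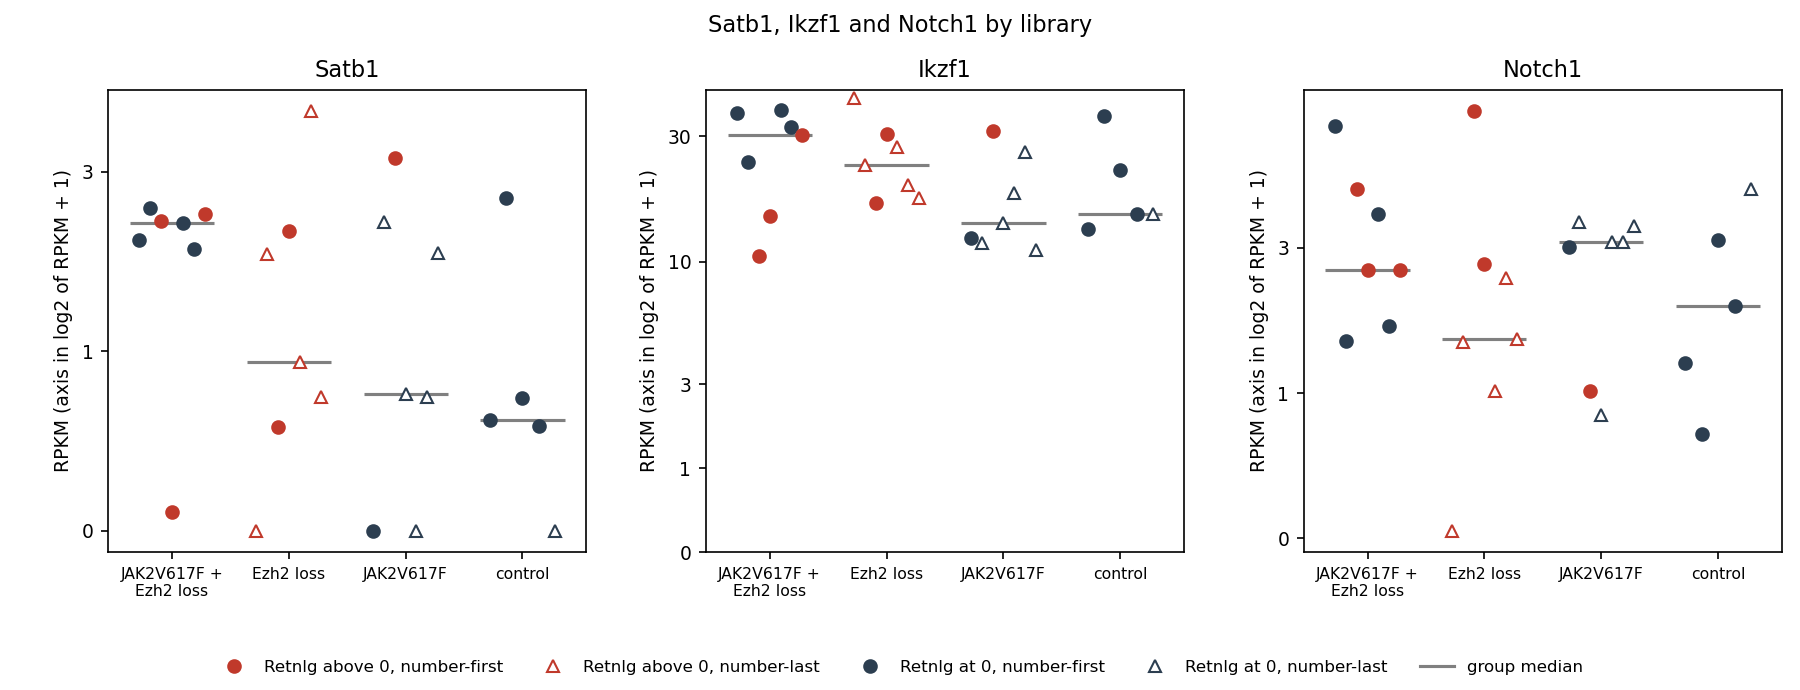
RPKM of Satb1, Ikzf1 and Notch1 in each of 26 libraries (vertical axis in log2 of RPKM + 1), for the double mutant, Ezh2 loss, JAK2V617F and control from left to right. Circles are number-first and open triangles number-last titles, red marks Retnlg above 0, dark marks Retnlg at 0 and grey bars are medians. The 4 groups overlap for all 3 genes, and 6 of 7 double-mutant libraries sit between 1.97 and 2.48 RPKM for Satb1.

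The other 4 genes belong to later lymphoid stages and were too sparse to test. Il7r (chr15:9505788-9530176, minus strand), the receptor chain for interleukin 7, was at 0.439 RPKM in double-mutant library 3 and at 0 in the other 25. Dntt (chr19:41029275-41059525, plus strand), the polymerase that adds bases at antigen receptor junctions, was at 1.55 RPKM in that same library and at 0 in the other 25. Ly6d (chr15:74762056-74763620, minus strand), a marker of B-biased lymphoid progenitors, was above 0 in 4 libraries: 15.3 and 21.1 RPKM in double-mutant libraries 3 and 7, and 51.1 and 5.48 RPKM in Ezh2-loss libraries 2 and 3. Ccr9 (chr9:123678439-123784330, plus strand), a chemokine receptor for homing to the thymus, was at 1.30 RPKM in double-mutant library 4, 0.146 in Ezh2-loss library 5 and 0.013 in JAK2V617F library 1. These Ccr9 values stand for 112, 5 and 1 reads. All 5 control libraries were at 0 for the 4 genes, where 3 reads would be 0.0234 to 0.0808 RPKM for Ccr9 and 0.149 to 0.555 RPKM for Ly6d over the libraries at 0.

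Some of the libraries that carried these sparse genes also held markers of lymphoid or dendritic cells. Those named were chosen after their values were seen, from 21 listed markers above 0 in at most 6 libraries. Double-mutant library 3 had 7 of the 21, among them Siglech (17.6 RPKM) and Cox6a2 (37.3 RPKM) of plasmacytoid dendritic cells and Ms4a1 (2.45 RPKM) of B cells. Double-mutant library 7 had 4, with Cd79a at 50.4 RPKM but Itgax at only 0.0135 and Ms4a1 at 0.0263 RPKM. Ezh2-loss library 2 had 5, among them the B cell genes Cd79a at 11.5 and Ms4a1 at 6.26 RPKM. Ezh2-loss library 5 had 3, double-mutant library 4 and Ezh2-loss library 3 had 1 each, and JAK2V617F library 1 had 0. Control libraries had 0 to 2. Any value above 0 was counted, so traces are included, such as Xcr1 at 0.0109 RPKM in double-mutant library 3 and at 0.0402 RPKM in control library 1.

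Such markers were not limited to the carriers. Double-mutant library 5, with 0 of the sparse genes, also had 7 of the 21, with the T and NK cell genes Cd3g at 41.3, Ncr1 at 48.5 and Cd2 at 32.5 RPKM, and it had the highest Cd52 (44.3 RPKM) of the libraries without Retnlg. Cd3e, Cd5, Pax5 and Igll1 were at 0 in all 26 libraries, and Rag1 was above 0 in 1, at 0.00825 RPKM. Cd79b, a B cell marker, was at 50.1 to 192 RPKM in all 26 libraries. The part of other cells in the sparse genes was not tested.

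Over the whole table few genes passed in any contrast, which sets the background for the count of 0 among the 6 genes in the 4 contrasts given with p-values. The share of the 12116 genes that passed was 0.033% for the double mutant against JAK2V617F, 0.099% for Ezh2 loss against JAK2V617F, 0% for JAK2V617F against control and 0% for the interaction. It was 0.00825% for the double mutant against control, 0% for Ezh2 loss against control and 0.0578% for Ezh2 loss averaged over both JAK2 backgrounds, from which nothing is read here. At an unadjusted p under 0.05 (limma), 1 of the 6 genes in the double mutant against JAK2V617F, 1 in Ezh2 loss against JAK2V617F, 0 in JAK2V617F against control and 0 in the interaction fell below that level. Of all tested genes, 8.06%, 8.27%, 4.14% and 6.09% did so in the same 4 contrasts. Where Retnlg was 0, 0.0413% of genes passed for the double mutant against JAK2V617F and 0 of the 6 did, with 1 at an unadjusted p under 0.05, beside 8.46% of all genes. For the double mutant against control the share there was 0.0165%. No library-wise separation was complete for any of the 6 genes. Over all genes, every double-mutant library was above every JAK2V617F library in 0.52% and above every control library in 0.182%, and every Ezh2-loss library was above every control library in 0.182%.

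Lists of neighbouring genes placed the 10 in their pathways, with 147 genes listed, 144 in the table and 117 tested. None of the 117 passed in the 4 contrasts given with p-values (limma). At an unadjusted p under 0.05 there were 12 in the double mutant against JAK2V617F, 11 in Ezh2 loss against JAK2V617F, 3 in JAK2V617F against control and 7 in the interaction, to be read beside the shares of all genes just given. For the double mutant against JAK2V617F 70 fold changes were positive and 47 negative, with a median of 0.12, beside 0.011 for all tested genes. For Ezh2 loss against JAK2V617F 74 were positive and 43 negative, with a median of 0.13.

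The early lymphoid genes other than the 10 (26 tested) had medians of 0.10 in the double mutant and 0.18 in Ezh2 loss, each against JAK2V617F. Cd27, a costimulatory receptor on lymphoid-primed cells and the most abundant of them, averaged 116 ± 20.9 RPKM in the double mutant, 103 ± 20.3 in Ezh2 loss, 165 ± 57.0 in JAK2V617F and 113 ± 20.9 in control (SD). Its log2 difference between Ezh2 loss and JAK2V617F was -0.63 (SE 0.18, limma adjusted p = 0.258). Genes of FLT3 and IL-7 receptor signalling (23 tested) had medians of 0.27 and 0.14 in the double mutant and Ezh2 loss. Il2rg, the common cytokine receptor chain that pairs with the IL-7 receptor, was abundant in all groups, at 356 ± 112 RPKM in the double mutant, 329.7 ± 110 in Ezh2 loss, 483 ± 211 in JAK2V617F and 299 ± 98.6 in control (SD).

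Notch pathway genes (22 tested) had medians of 0.20 in the double mutant and 0.17 in Ezh2 loss against JAK2V617F, with 16 positive in each. Mfng, a glycosyltransferase that modifies Notch receptors, averaged 159 ± 30.6 RPKM in the double mutant, 82.5 ± 35.7 in Ezh2 loss, 72.4 ± 27.9 in JAK2V617F and 108 ± 36.3 in control (SD). Its log2 difference between the double mutant and JAK2V617F was 0.51 (SE 0.25, limma adjusted p = 0.615). The Ikaros family with the NuRD complex, its chromatin remodelling partner (16 tested), had medians of -0.19 and 0.08 for the double mutant and Ezh2 loss. Genes of V(D)J recombination and end joining (11 tested) had -0.12 and 0.28, and tetraspanins other than Cd53 (16 tested) 0.16 and -0.05. The other Ly6 genes (4 tested) had 0.70 and 0.66.

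Of the marker lists, the 12 tested genes of the lymphoid-primed progenitor list had a median of 0.68 for the double mutant and 0.46 for Ezh2 loss against JAK2V617F, with 9 of 12 positive in each and 0 passing. That list shares genes with the neutrophil, monocyte and pan-leukocyte lists, so its medians are not separate from theirs. Cd27, among its most abundant genes, was lower, at -0.19 and -0.63. The neutrophil list (15 tested) had 0.59 and 2.4, with 12 and 15 positive, and the erythroid list (7 tested) 0.88 and 2.69. The pan-leukocyte list (18 tested) had 0.47 and 0.26. The monocyte list (7 tested) had 0.33 and 0.52, the dendritic cell list (5 tested) 0.01 and -0.02, the B cell list (3 tested) 0.56 and 0.08, the T and NK cell list (4 tested) 0.15 and 0.40, and the HSC list (19 tested) -0.12 and -0.09. Beside Retnlg, the markers that passed upward in Ezh2 loss against JAK2V617F, with all libraries fitted, were Beta-s and Arhgdib. Beta-s, a beta-globin gene, had 6.14 (SE 1.0, limma adjusted p = 0.00337). Arhgdib, abundant in leukocytes, had 0.73 (SE 0.15, limma adjusted p = 0.0295). In number-first libraries alone, 0 genes of the table passed in this contrast. Beta-s averaged 12.1 ± 12 RPKM in the double mutant, 1679 ± 2184 in Ezh2 loss, 6.7 ± 9.0 in JAK2V617F and 12.2 ± 6.1 in control (SD).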

How the data were processed

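RNA-seq (Smart-Seq2) values of sorted mouse bone marrow HSCs were deposited by the authors as 1 table of RPKM, with 26 libraries and 0 unmapped columns. The submitters' processing notes name SAMtools 0.1.19, Subread 1.5.0 and STAR 2.4.2a and the mouse build mm10 (GRCm38), without settings or annotation. The 10 genes and the 16 gene lists were chosen with earlier results of these data known.

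Genes reaching 1 RPKM in 5 or more libraries (12116) were tested with limma 3.58.1 in R 4.3.3 on log2(RPKM + 1), which understates changes of low genes, with group means, the title style and all 26 libraries (trend and robust eBayes, two-sided, Benjamini-Hochberg, adjusted p under 0.05). The fit was tested on simulated data. Reads and depth were estimated from the whole-number steps of low values (tolerance 0.01), coherent in 313 of 325 library pairs. Since no label names separate animals, p-values reflect the spread among these libraries, which may be technical. Other settings changed the pseudocount (0.1, 5), low-value filter, scaling, weights, covariates and libraries; the fits without double-mutant titles 24 to 27 and without double-mutant libraries with Retnlg were added after seeing the data. In 8 number-last JAK2V617F and Ezh2-loss libraries, those sharing title number 2, 3, 4 or 5 did not deviate together (r from -0.057 to 0.023). Other shared numbers were not examined, and the main fit held no pairing. Named beside the 10 genes are Retnlg, Ezh2, list genes that passed (at most 4 per list) or else up to 2 of the highest mean per list, and the 5 genes nearest in pattern to Flt3, Cd52 and Cd53. Actb was added after its values were seen.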

Additional observations from a re-analysis of the deposited data

Results flagged for a closer look

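In 11 of the 31 combinations of gene and group with enough spread to examine, 1 library stood apart from the rest by Dixon's criterion. Its rate of about 1 in 20 by chance assumes normally distributed values. The criterion was applied to RPKM without log2, which are skewed, so the 11 cannot be set against that rate. In 5 of the 11 a single value above 0 stood among zeros and the criterion is met by construction: Il7r, Dntt and Ccr9 in its 3 groups. Ly6d in Ezh2 loss was at 0 in 5 of 7 libraries. Among the tested genes, Flt3 was high in Ezh2-loss library 3 (13.2 RPKM, the next 4.98), and the same library was high for Notch1 (6.68 RPKM, the next 2.71). Cd52 was high in JAK2V617F library 3 (144 RPKM, the next 35.3), the only JAK2V617F library with Retnlg. Satb1 was low in double-mutant library 4 (0.0753 RPKM, the next 1.97) and high in control library 2 (2.61 RPKM, the next 0.669).

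The sparse genes stood apart where 1 library carried them: Il7r (0.439 RPKM) and Dntt (1.55 RPKM) in double-mutant library 3, and Ly6d in Ezh2-loss library 2 (51.1 RPKM, the next 5.48). Ccr9 did so in double-mutant library 4 (1.30 RPKM), Ezh2-loss library 5 (0.146 RPKM) and JAK2V617F library 1 (0.013 RPKM, 1 read).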

How the results depend on the processing

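In the 4 contrasts given with p-values, the number of the 6 tested genes that passed was 0 under each setting run, leaving out each library in turn included (lowest 0, highest 0). Log2 directions were followed over all settings for Flt3, Cd52 and Cd53 in 7 contrasts, and for Satb1, Ikzf1 and Notch1 in the double mutant against JAK2V617F. Flt3 in JAK2V617F against control turned to -0.51 where Retnlg was 0, -0.07 with only the groups compared and -0.25 at a pseudocount of 0.1. Cd52 in the double mutant against JAK2V617F turned to -1.16 without double-mutant titles 24 to 27 and to -1.20 without the double-mutant libraries with Retnlg. Cd53 in that contrast turned to -1.06 where Retnlg was 0 and to -0.64 without those libraries. Where Retnlg was 0, title style nearly separated the double mutant from JAK2V617F. Leaving out 1 library, the values ran from -0.16 to 0.56 for Flt3 in JAK2V617F against control, -0.18 to 0.57 for Flt3 in Ezh2 loss against JAK2V617F, -0.34 to 0.90 for Flt3 in Ezh2 loss against control, 0.64 to 2.59 for Flt3 in the interaction, and, in the double mutant against JAK2V617F, -0.14 to 0.68 for Satb1, 0.21 to 0.71 for Ikzf1 and -0.20 to 0.39 for Notch1; Notch1 for Ezh2 loss averaged over both JAK2 backgrounds ran from -0.07 to 0.19. Apart from these, in number-first libraries Notch1 turned to 0.90 in Ezh2 loss against JAK2V617F, turned positive in Ezh2 loss against control and turned to -0.54 in the interaction, and Satb1 to 0.25 in the interaction. The cause was not tested. Without the style covariate, 168 genes of the table passed up and 106 down in the double mutant against JAK2V617F, against 2 and 2 with it, and 157 and 58 in the interaction, against 0 and 0. With title number as a replicate block in 8 number-last libraries, Cd52 in Ezh2 loss against JAK2V617F was 4.41 (SE 0.59, limma adjusted p = 0.203) and 0 of the 6 genes passed; the table had 0 up and 1 down, against 1 and 4 without the block. Libraries with Retnlg at 0 gave no value for Ezh2 loss alone, which has none. At 7.8 to 29.2 M reads, a gene listed at 0 may still be present at up to 3 reads.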
